A study of Mus musculus with 2 samples.

Results

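In mouse liver RNA, 10 genes that build, remodel and take up lipoproteins were followed: Mttp, Tm6sf2, Sort1, Pltp, Lipc, Lcat, Scarb1, Abca1, Lpl and Vldlr. They were taken by symbol from the deposited counts, which list 22609 gene symbols, and 10 of 10 were found. All 10 were among the 11411 genes treated as measured, meaning that both libraries together gave 50 or more reads. The livers came from male C57BL/6 mice that ate a diet with 45% of its calories from fat for 16 weeks, beginning at an age of 8 weeks. There were 2 libraries, 1 from wild-type mice (C57BL/6J in the feeding protocol) and 1 labelled Lrg1 knockout, in which the gene was targeted in the whole body. Both groups received the same diet, and the labels give neither the number of mice behind a library nor the hour or feeding state at collection. The series was made to learn how lack of LRG1, a secreted glycoprotein, relates to expression in liver.

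The liver exports triglyceride in very low density lipoprotein (VLDL), a particle built around apolipoprotein B in the endoplasmic reticulum. In plasma, lipases remove its triglyceride, transfer proteins and an acyltransferase exchange and esterify its lipids with those of high density lipoprotein (HDL), and receptors take the remnants up again. HDL itself starts with cholesterol efflux from liver cells to apolipoprotein A-I and ends with selective uptake of cholesteryl ester by the liver.

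The libraries held 23311906 and 18738397 reads in genes for wild type and the library labelled knockout. Values are given as reads and as CPM, the usual scaled read count, after trimmed mean of M-values (TMM) scaling; 1 read was worth 0.0441 and 0.0519 CPM. Every interval is exact, at 95%, and covers only the error of counting reads. Because each genotype has 1 library, nothing was replicated and no test was run, and each difference is between 2 libraries rather than between genotypes. Lrg1 had 26958 reads in wild type against 17572 in the library labelled knockout, a log2 ratio of -0.39, so the counts do not show a loss of the targeted transcript. The counts do not tell where in the gene these reads lie. Hepatocyte markers such as Alb were abundant, with 10 of 10 measured and a summed level of 126803 CPM in wild type and 111327 CPM in the other library.

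Of the 10 genes, 3 differed at least 2-fold between the libraries: Sort1 was higher in the library labelled knockout, and Pltp and Vldlr were lower. Over all measured genes, 4.2% were at least 2-fold apart, 1.7% higher and 2.5% lower. Another 6 genes lay within 1.5-fold, as did 87.2% of measured genes, and Tm6sf2 lay between. The median log2 ratio of the 10 genes was 0.05 and the mean -0.07, against a median of -0.01 over all measured genes. Their log2 ratios spanned -1.41 to 1.48, so the median says little about single genes. The counting interval of the ratio left out equality for 8 of 10 genes, beside 48.6% of all measured genes, and included it for Lipc and Lcat. Under total-count scaling the interval left out equality for 10 of 10. That scaling moved the median over all measured genes from -0.01 to 0.07, and the share of all measured genes was not counted under it. Because the tissue is a mixture of cells, fewer cells of a type and less RNA per cell cannot be told apart here.

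**Figure D1:**
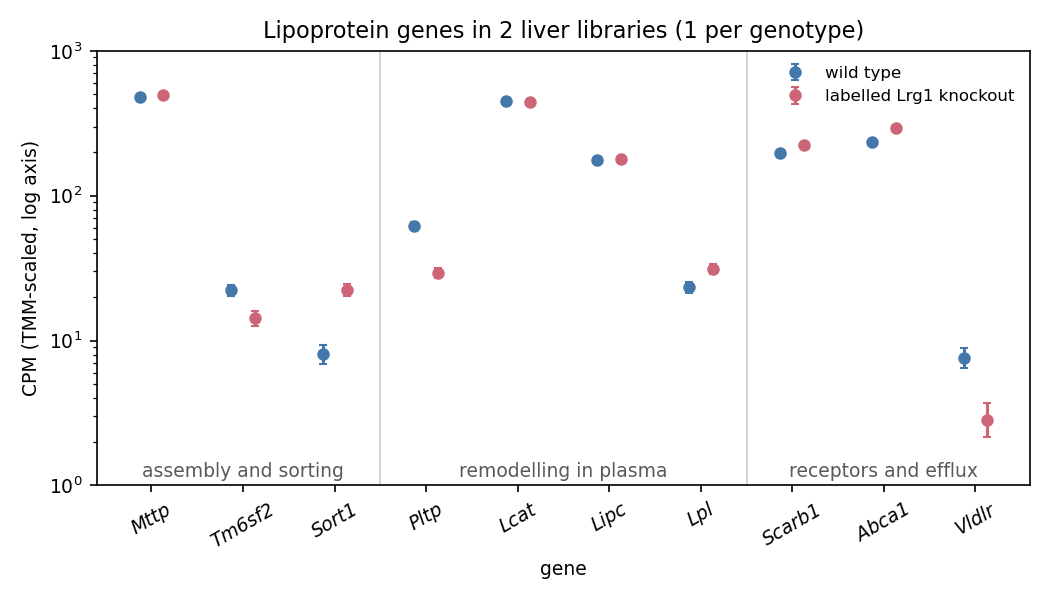
Level of each gene in CPM on a log axis, with 1 point per library (blue wild type, red labelled Lrg1 knockout) and exact 95% Poisson intervals for counting error. Mttp and Lcat are the highest points in both libraries, and the points of Sort1, Pltp and Vldlr stand farthest apart.

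Mttp, the microsomal transfer protein that loads lipid onto apolipoprotein B, had 10798 reads in wild type against 9620 in the library labelled knockout. These are levels of 476.7 and 498.9 CPM, a ratio of 1.05 (1.02 to 1.08). The small excess is in the middle of all genes, at percentile 60.6 of the log2 ratios. Trmt10a overlaps Mttp on the opposite strand in the GENCODE M21 annotation and had 137 and 87 reads, far fewer than Mttp.

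Tm6sf2, a membrane protein of the endoplasmic reticulum and Golgi that takes part in adding lipid to VLDL, had 503 reads in wild type against 275 in the library labelled knockout. The levels were 22.2 CPM (20.3 to 24.2) and 14.3 CPM (12.6 to 16.0), and these intervals did not overlap. It was thus 1.56-fold higher in wild type (1.34 to 1.81), a log2 ratio of -0.64 at percentile 5.94. Mttp and Tm6sf2, both of which serve the lipidation of VLDL, thus lay on different sides of equality.

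Sort1 encodes sortilin, a Golgi sorting receptor that binds apolipoprotein B and also serves lipoprotein uptake. It had 182 reads in wild type, 8.03 CPM (6.91 to 9.29), and 433 in the library labelled knockout, 22.5 CPM (20.4 to 24.7). Sort1 was 2.79-fold higher in the library labelled knockout (2.35 to 3.34), the highest ratio of the 10 genes. Its log2 ratio, 1.48, lay at percentile 99.4 of measured genes. The annotation places an antisense gene, Gm12523, and a transcript on the same strand, Gm43099, over the Sort1 locus, and whether reads were counted by strand is not stated in the sources used here.

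**Figure D2:**
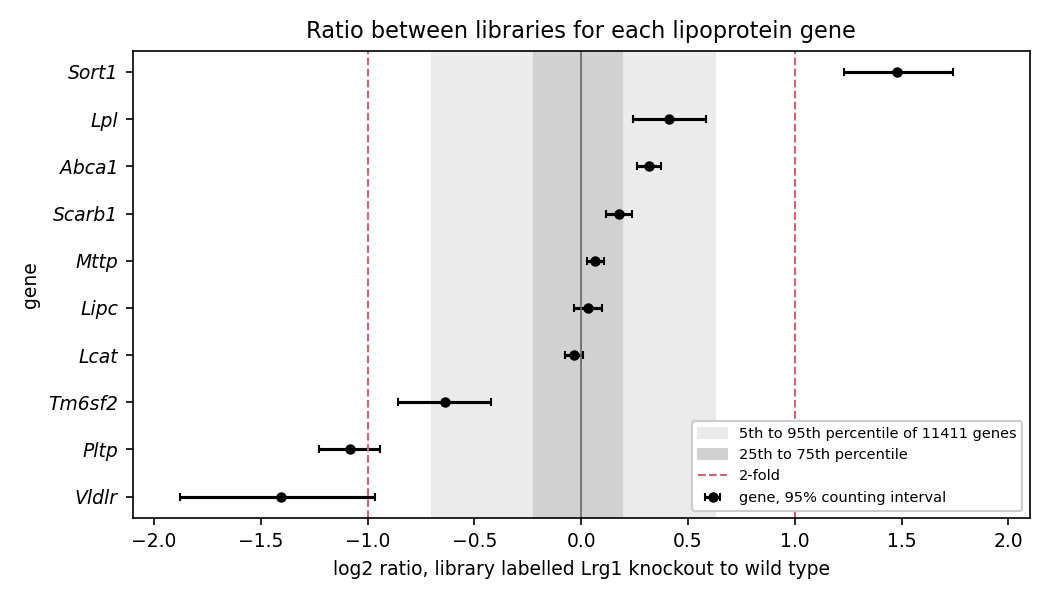
Log2 ratio of the library labelled Lrg1 knockout to wild type for each gene (points) with 95% counting intervals (bars), over the central 50% (dark grey) and 90% (light grey) of 11411 measured genes. Sort1, Pltp and Vldlr lie beyond the dashed 2-fold lines, and Tm6sf2, Abca1 and Lpl lie outside the dark band but inside the light one.

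Pltp, the phospholipid transfer protein that moves phospholipid from VLDL remnants to HDL, had 1405 reads in wild type against 564 in the library labelled knockout. The levels were 62.0 CPM (58.8 to 65.4) and 29.2 CPM (26.9 to 31.8), 2.12-fold higher in wild type (1.92 to 2.34). The interval reaches below 2-fold, so the count past that threshold is close for Pltp. Its log2 ratio was -1.08, at percentile 2.18. Ctsa overlaps Pltp on the opposite strand, and with 5680 and 4056 reads it had a log2 ratio of -0.25, a smaller difference than that of Pltp.

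Vldlr, the VLDL receptor, is abundant in muscle, heart and fat and scarce in normal liver. It had 172 reads in wild type, 7.59 CPM (6.50 to 8.82), and 55 in the library labelled knockout, 2.85 CPM (2.15 to 3.71). Vldlr was 2.66-fold higher in wild type (1.95 to 3.68), with a log2 ratio of -1.41 at percentile 1.14. It was the gene with the fewest reads of the 10, 227 in all, and its interval, which reaches just below 2-fold, was the widest.

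Promoter windows were looked up for these genes in RefSeq on GRCm38.p6, from 250 bases before to 50 after an annotated start, and 6 of 10 genes had 8 windows. Sort1, Tm6sf2, Scarb1 and Lpl had none in that table. The windows of Pltp and Vldlr are shown because these genes were 2-fold lower in the library labelled knockout, and that of Abca1 because it lay on the other side of equality. Capitals mark matches, on either strand, to the TATA box (letters TATAAA), the CCAAT box (the same letters), the GC box (letters GGGCGG), the E-box (letters CACGTG), the nuclear receptor hexamer (letters AGGTCA), the sterol regulatory element (letters TCACNCCAC) or the cAMP response element (letters TGACGTCA). The sequences run 5′ to 3′ on the strand of the gene.
Pltp, chr2:164857659-164857958, minus strand: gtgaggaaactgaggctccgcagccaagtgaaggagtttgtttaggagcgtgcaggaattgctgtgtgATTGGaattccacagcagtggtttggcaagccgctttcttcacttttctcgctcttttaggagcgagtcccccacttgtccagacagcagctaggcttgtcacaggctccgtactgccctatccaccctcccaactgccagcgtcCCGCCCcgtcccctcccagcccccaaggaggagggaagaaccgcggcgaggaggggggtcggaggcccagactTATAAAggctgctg
Vldlr, first annotated start, chr19:27216234-27216533, plus strand: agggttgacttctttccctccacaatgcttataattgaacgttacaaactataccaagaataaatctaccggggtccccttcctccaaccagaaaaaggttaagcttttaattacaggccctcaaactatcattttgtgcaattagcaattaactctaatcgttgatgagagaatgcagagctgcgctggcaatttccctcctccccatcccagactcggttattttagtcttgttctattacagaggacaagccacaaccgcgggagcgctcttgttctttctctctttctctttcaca
Abca1, chr4:53159846-53160145, minus strand: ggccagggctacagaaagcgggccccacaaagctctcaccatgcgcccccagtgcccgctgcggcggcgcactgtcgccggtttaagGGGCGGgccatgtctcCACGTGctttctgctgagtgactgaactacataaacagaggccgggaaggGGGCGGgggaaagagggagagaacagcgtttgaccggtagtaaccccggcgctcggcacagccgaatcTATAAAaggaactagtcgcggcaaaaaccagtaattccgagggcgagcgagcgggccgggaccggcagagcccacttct
The Pltp window holds a reverse CCAAT box, a reverse GC box and, 37 bases after the start, a TATA box. The Vldlr window holds none of these letters, whereas the window of its other annotated start, not printed, has a reverse CCAAT box and a reverse GC box. The Abca1 window has a TATA box 29 bases before the start, 2 GC boxes and an E-box. Of 32851 windows in the table, 13.6% held the TATA box, 37.4% the CCAAT box, 35.7% the GC box and 7.15% the E-box. The hexamer was in 16.3% of windows and, among these genes, only in 1 window of Lipc. The sterol element (1.24%) and the cAMP element (1.79%) were in 0 of the 8 windows. Base composition also differed, with 59.0% G and C in the Pltp window, 43.0% in the printed Vldlr window and 62.7% in that of Abca1. The median over all windows was 52.7%. The Vldlr window that is not printed had 68% G and C, so the low value holds for only 1 of its annotated starts. A match is a run of letters and not evidence that a factor binds there.

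Abca1, the transporter that hands cholesterol and phospholipid to apolipoprotein A-I to begin an HDL particle, had 5346 reads in wild type against 5671 in the library labelled knockout. The levels were 236.0 CPM (229.7 to 242.4) and 294.1 CPM (286.5 to 301.8), a ratio of 1.25 (1.2 to 1.29). In CPM this was the largest excess of the 10 genes, 58.1, although its log2 ratio of 0.32 lay only at percentile 84.7.

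Scarb1 encodes SR-BI, the HDL receptor through which the liver takes cholesteryl ester from HDL. It had 4456 reads in wild type against 4283 in the library labelled knockout, 196.7 and 222.1 CPM, a ratio of 1.13 (1.08 to 1.18). Transcripts of both cell surface proteins that serve HDL, Abca1 and Scarb1, were thus slightly more abundant in the library labelled knockout, while Vldlr was lower.

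Lcat, the plasma enzyme that esterifies HDL cholesterol, had 10226 reads in wild type against 8495 in the library labelled knockout. The levels were 451.4 CPM (442.7 to 460.3) and 440.5 CPM (431.2 to 450.0), with overlapping intervals and a ratio of 0.976 (0.948 to 1.0). Its log2 ratio of -0.04 turned to 0.05 when the libraries were scaled by total count, so no direction is given for it. Lipc, hepatic lipase, which trims remnants and HDL, had 3971 and 3459 reads, 175.3 and 179.4 CPM, a ratio of 1.02 (0.977 to 1.07). Both liver enzymes that act on HDL in plasma were within counting error of equality under TMM. Under total-count scaling the ratio was 1.08 (1.04 to 1.13) for Lipc and 1.03 (1.004 to 1.06) for Lcat, and both intervals left out equality.

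Lpl encodes lipoprotein lipase, which works on the capillary wall of fat and muscle and is low in adult liver. It had 530 reads in wild type against 600 in the library labelled knockout. The levels were 23.4 CPM (21.4 to 25.5) and 31.1 CPM (28.7 to 33.7), a ratio of 1.33 (1.18 to 1.5) at percentile 89.1. Of the lipases, Lpl was thus higher in the library labelled knockout and the interval of Lipc included equality under TMM.

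Levels were compared between genes only per kilobase (kb) of annotated exon, in CPM per kb. In wild type Lcat stood highest at 336.4, followed by Lipc at 81.5 and Mttp at 76.8. Pltp at 24.2, Scarb1 at 23.1 and Abca1 at 22.8 followed with overlapping intervals between neighbours, and then Tm6sf2 at 11.7, Lpl at 2.23, Sort1 at 1.06 and Vldlr at 0.754. In the library labelled knockout Pltp, at 11.4, stood below Abca1 at 28.4 and Scarb1 at 26.1. Lipc and Mttp had overlapping intervals there, Sort1 stood level with Lpl at 2.97, and Vldlr was again lowest at 0.283. The order depends on exon length: with the longest protein-coding transcript in place of all exons, Scarb1 in wild type came to 78.0, Lpl to 5.69 and Mttp to 120.3 CPM per kb. Together the 10 genes summed to 1659 CPM in wild type and 1735 CPM in the other library. Mttp and Lcat made up 55.9% and 54.1% of these sums, and the genes that were 2-fold apart 4.68% and 3.14%. Of the genes that were 2-fold apart, Sort1 and Vldlr were the scarcest per kb in wild type, whereas Pltp stood near Scarb1 and Abca1.

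**Figure D3:**
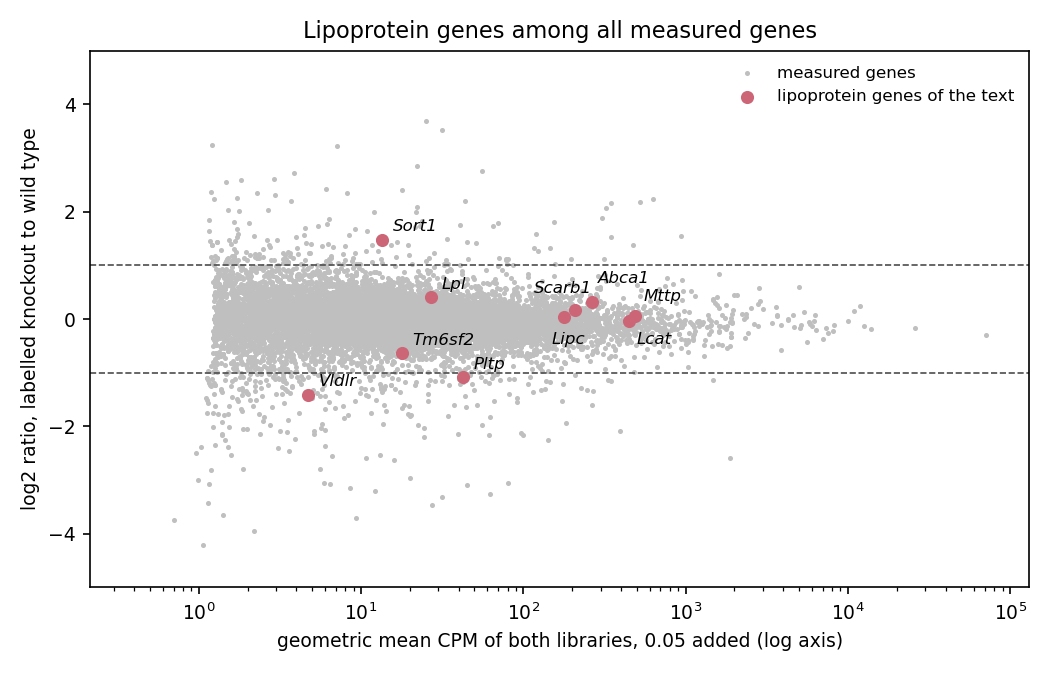
Log2 ratio of the library labelled Lrg1 knockout to wild type against the geometric mean CPM of both libraries (log axis, 0.05 CPM added) for all measured genes (grey) and the 10 lipoprotein genes (red); dashed lines mark 2-fold, and 7 genes lie beyond the axis limits. Mttp, Lcat, Lipc, Scarb1 and Abca1 lie at the abundant end near 0, and Vldlr, Pltp and Sort1 lie past 2-fold at lower levels.

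The cells that surround hepatocytes also express some of these genes, and their markers differed between the libraries. Of 11 measured markers of sinusoidal endothelium 9 were higher in the library labelled knockout, and their summed level went from 283.9 to 430.4 CPM. Kupffer cell markers, for the resident macrophages, were lower for 8 of 12, with sums of 776.2 and 790.2 CPM. Recruited macrophage markers were lower for 8 of 10, with sums of 270.9 and 223.5 CPM. Stellate cell and fibroblast markers were higher for 10 of 12, with sums of 585.8 and 615.6 CPM. None of the genes in these 4 lists was without reads in both libraries. The part of these cells in the lower Pltp or the higher Lpl and Abca1 was not tested. Fat and muscle, where Lpl and Vldlr are abundant, were looked at in the same way. Of 12 adipocyte markers, 6 were measured and 5 of these were lower, with summed levels of 332.4 and 180.9 CPM. The largest parts of these sums were Cidec, at 132.6 CPM in wild type and 50.2 CPM in the library labelled knockout, and Pnpla2, at 119.8 and 89.2 CPM. Whether reads of Cidec and Pnpla2 came from fat or from liver cells was not tested, so the sums are not a measure of fat RNA. Plin1, Lep and Retn are listed at 0 reads in both libraries, though the annotation behind the counts is not known, and Adipoq had 1 and 4. Cfd had 711 reads in wild type against 104, a log2 ratio of -2.54, Fabp4 had 266 against 179 and Adrb3 97 against 188. The part of fat RNA in the lower Vldlr or the higher Lpl was not tested. Of 10 skeletal muscle markers 0 were measured, and they summed to 3.05 and 3.01 CPM. Cholangiocyte markers, with 2 of 10 measured, summed to 43.7 and 42.7 CPM.

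Around the 10 genes, 7 lists of other lipoprotein genes held 155 measured genes, of which 109 had less and 46 more expression in the library labelled knockout. Each gene was counted once here, although some stand in more than 1 list. Their median log2 ratio was -0.18, and none of the medians of these 7 lists changed sign under the other scalings. Of the 155, 1 was at least 2-fold higher and 9 were at least 2-fold lower. Over all measured genes these shares were 1.7% and 2.5%, and they stand beside the counts of each list below. Under TMM all measured genes had 48.3% higher and 51.7% lower. Under total-count scaling the split of the 155 was 60 higher and 95 lower, with a median of -0.10. The median over all measured genes also rose, from -0.01 to 0.07. The lists thus stayed below all measured genes in the median under both scalings.

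**Figure D4:**
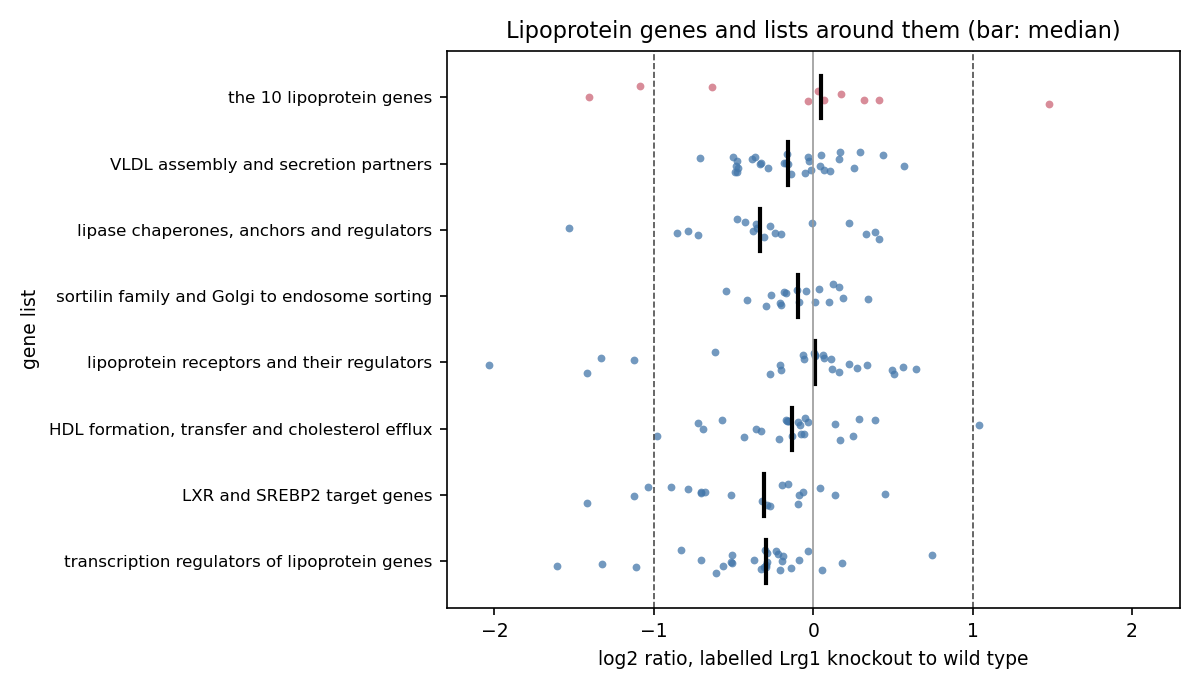
Log2 ratio of the library labelled Lrg1 knockout to wild type for each measured gene of the 10 lipoprotein genes (red) and of 7 surrounding gene lists (blue), with a black bar at the median of each and dashed lines at 2-fold. The medians run from -0.33 for lipase chaperones, anchors and regulators to 0.05 for the 10 genes.

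VLDL assembly and secretion partners had 10 genes higher and 21 lower of 31 measured, with a median of -0.16. Of these 0 were past 2-fold, beside 4.2% of all measured genes. Under total-count scaling the split was 14 and 17, with a median of -0.08 beside 0.07 over all measured genes. Apob, the structural protein that Mttp loads, had 228784 reads in wild type against 190646 in the library labelled knockout, a log2 ratio of -0.03. P4hb, the protein disulfide isomerase that forms the small subunit of the transfer complex with Mttp, was at -0.48. Mttp and its partner subunit thus differed, 1 slightly above and the other below equality. Cideb, a droplet protein that takes part in VLDL lipidation, was at -0.33, Sar1b, the GTPase of the export coat, at -0.16 and the cargo receptor Surf4 at -0.17. Pla2g12b, which helps expand the particle, was at 0.25.

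Of 18 measured genes of the sortilin family and of Golgi to endosome traffic, the route on which Sort1 works, 0 were 2-fold apart. Over all measured genes this share was 4.2%. In the library labelled knockout 7 of the 18 were higher and 11 lower, with a median of -0.09. Sorl1, a sortilin relative, had 62 and 36 reads and a log2 ratio of -0.55, with an interval that included equality. Gga2, an adaptor for sortilin in the Golgi, was at 0.19 with an interval that included equality, and Vps35, of the retromer complex that returns sortilin from endosomes, was at -0.27.

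Chaperones, anchors and regulators of the lipases were lower for 14 of 18 measured genes, with a median of -0.33. Angptl4, a secreted inhibitor of lipoprotein lipase, was at -0.36. Angptl8, which takes part in the inhibition of that lipase and is listed under its older symbol Gm6484, had 946 reads in wild type against 445 in the library labelled knockout, a log2 ratio of -0.86. Lmf1, a maturation factor for lipases in the endoplasmic reticulum, was at -0.27, and Syvn1, a ubiquitin ligase of degradation there, at -1.53, the 1 gene of the list past 2-fold. Gpihbp1, the endothelial anchor of lipoprotein lipase, had 362 and 403 reads and was at 0.39. Lpl and its anchor were thus both higher. Angptl4 and Angptl8 were among the 14 of 18 measured genes of the list that were lower, and Angptl4 was near the list median of -0.33. Lipg, endothelial lipase, was at -0.72, unlike its relatives Lipc and Lpl.

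Lipoprotein receptors and their regulators had 15 genes higher and 10 lower of 25 measured, a median of 0.01, and 4 at least 2-fold lower. Among these were the scavenger receptors Marco, of macrophages, and Cd36, at -2.04 and -1.33. Other receptors differed less: Lrp1, the large remnant receptor, was at -0.27 and Lsr, a receptor for triglyceride-rich particles, at -0.20. Lrp8, a close relative of Vldlr, had only 4 and 5 reads.

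HDL formation and efflux genes were higher for 6 and lower for 19 of 25 measured, with a median of -0.14. Under total-count scaling 11 were higher and 14 lower, with a median of -0.05 beside 0.07 over all measured genes. Apoa1, the acceptor for Abca1, had 247098 reads in wild type against 250325 in the library labelled knockout, a log2 ratio of 0.25. Apom, an HDL apolipoprotein, was at 0.39. Other HDL proteins of the list were lower, with Apoa2 at -0.22, Apoa4 at -0.58, Apof at -0.17 and Saa4 at -0.98. Abcg1, the transporter that passes cholesterol to mature HDL, had 214 and 163 reads and was at -0.16, with an interval that included equality. Pcolce2, an HDL-associated enhancer of procollagen processing, was the 1 gene past 2-fold, at 1.04 on 22 and 39 reads.

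Abca1, Pltp and Lpl are known targets of the liver X receptors (LXR), which sense oxysterols. Their log2 ratios were 0.32, -1.08 and 0.41, and the part of LXR in these ratios was not tested. Of 20 other measured target genes of LXR and of the sterol factor SREBP2, 3 were higher and 17 lower, with a median of -0.31. Of these 3 were at least 2-fold lower, among them Insig1, which retains sterol factors in the endoplasmic reticulum (-1.04). Transcription regulators of lipoprotein genes were lower for 26 of 29 measured, with a median of -0.30, and 3 were at least 2-fold lower. These were Nr0b2, a repressor induced by bile acids (-1.61), Ppargc1b, a coactivator (-1.32), and Bhlhe40, a repressor of the circadian system (-1.11). Nr1h3, the main LXR of liver, was at -0.19, Srebf2 at -0.30 and Nr5a2 at -0.23. Hnf4a, a hepatocyte factor that acts on Mttp, was at -0.51 and Mttp at 0.07. The activity of these factors was not measured, and their part in the ratios of target genes was not tested.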

How the data were processed

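The 2 libraries, of wild type and labelled Lrg1 knockout, measured liver RNA. Per the labels, poly(A) RNA was made into stranded libraries from about 500 ng of total RNA and read from 1 end over 50 bases. Per the submitters' processing notes, bcl2fastq, TopHat2, HTSeq and build mm9 were used; the sources used here do not give versions, annotation or strand setting. The files deposited hold raw counts of reads for each gene symbol, which the authors had not normalized. Lines that name no gene were left out. Reads outside genes were 14.0% and 14.4% of unique reads, and reads in more than 1 gene 0.231% and 0.234%. The line for alignments that were not unique differed more, with 27554856 for the wild-type library against 30368128 for the other. Reads in genes went the opposite way, at 23311906 against 18738397. The part of this technical difference in the ratios was not tested.

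Counts were scaled by TMM in edgeR 4.0.16 (R 4.3.3), and log2 ratios took a prior count of 0.5. Genes with a sum of at least 50 reads were measured. Ratios have Clopper-Pearson and levels Poisson exact 95% intervals, which cover counting error only. Reads lack molecular identifiers and are not independent molecules. There was no test. Exon lengths came from GENCODE M21 (GRCm38) and promoters from RefSeq on GRCm38.p6, and no coordinate was carried to mm9. The steps were tested on simulated counts. Alternatives were size factors of DESeq2 1.42.0, total-count scaling with and without the 20 most abundant genes, thinning, a prior count of 2, other read minimums and thresholds, means, and other exon lengths. Named genes were the 10, Lrg1, fixed companions and list genes at least 2-fold apart. Outside this rule, list genes at 0 reads were named, with Idi1, Sqle and Sc5d beside them, as were Apoa2, Apoa4, Apof and Saa4. Trmt10a and Ctsa came from overlap. Genes of the marker lists given by value came as defining markers or, for Cidec and Pnpla2, as the largest parts of a sum. Some genes that this rule takes are not reported here. The 10 genes and the lists were chosen with earlier results of these data known. Figures were drawn with matplotlib 3.10.9, and intervals came from scipy 1.17.1, in Python 3.11.15.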

Additional observations from a re-analysis of the deposited data

How the results depend on the processing

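Under the 5 alternatives of scaling, thinning and prior count, Sort1 (log2 ratio 1.47 to 1.58), Pltp (-1.09 to -1.0) and Vldlr (-1.42 to -1.32) stayed past 2-fold, and the other 7 genes stayed within it. Lcat changed sign under 2 of them, total count with and without the 20 most abundant genes, and the other 9 genes kept theirs. The median log2 ratio of the 10 genes was 0.13 under total-count scaling, 0.11 when the 20 most abundant genes were left out of the total and -0.068 as a mean. Lrg1 was at -0.30 and -0.33 under those 2 scalings, and the median over all measured genes at 0.07 and 0.05. Thresholds move counts by construction: at 3-fold 0 of the 10 genes and 2 genes of the surrounding lists remained, and at 1.5-fold 26 genes of the lists passed. Read minimums did not touch the 10 genes, which had at least 227 reads, and gave 8 to 13 genes of the lists. No paired analysis was possible because each group has 1 library. Depth limits Vldlr and Sort1 most.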

Other observations

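Some genes that belong to these pathways are listed at 0 reads in both libraries. They are Hmgcs1, an enzyme of cholesterol synthesis, Mia3, a receptor for large cargo in the export of VLDL, and the sortilin relatives Sorcs1 and Sorcs3. Of other genes of sterol synthesis in the same list, Idi1 had only 7 reads in wild type, Sqle 119 and Sc5d 4766. A count of 0 was taken as a limit of 3 reads, which is lower than the bound of the exact interval. For a gene whose reads could be counted, this allows up to 0.132 CPM in the wild-type library and 0.156 CPM in the other. Whether reads of the genes at 0 could be counted is not known, because the annotation behind the counts is not given.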
